A study of Nomascus leucogenys with 9 samples.

Results

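Aldehyde dehydrogenases were followed in lymphoblastoid lines of the northern white-cheeked gibbon, Nomascus leucogenys. The 10 genes were taken from the deposited table by their human-format Ensembl identifiers: ALDH1A1, ALDH1A2, ALDH1B1, ALDH2, ALDH3A2, ALDH5A1, ALDH6A1, ALDH7A1, ALDH9A1 and ALDH18A1. All 10 were among the 15356 rows and 0 were absent. ALDH1A1 was chosen by its values here, as a gene with a very wide range among the lines, so its values are given as a description and support nothing. The other 9 genes are relatives of it in the same enzyme family.

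RNA-seq had been made from lymphocyte lines, transformed with Epstein-Barr virus and established from 9 different animals, in a study of the gibbon retrotransposon LAVA. The labels give no treatment, age, sex or contrast. The lines form 1 group, with 1 library each, and are called here by the animals they came from, namely Vok, Ricky, Phyllis, Nancy, Melouprey, Khao, China, Bobby and Asia. Animal, culture and viral transformation coincide in every line, and all lines carry the virus. A line has no replicate library, so a difference between a given pair of lines has no error of its own, and SDs given here are spreads among the 9 lines.

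Most aldehyde dehydrogenases, though not every gene of the family, oxidise reactive aldehydes to carboxylic acids, using NAD or NADP as the electron acceptor. The ALDH1A enzymes make retinoic acid from retinaldehyde, a signal that affects the maturation of B lymphocytes and, in the gut, their switch to IgA. Mitochondrial enzymes of the family clear acetaldehyde and handle intermediates of amino acid and amine breakdown. High aldehyde dehydrogenase activity, often from ALDH1A1, is also used to mark blood stem and progenitor cells. The roles given below are those known for the human enzymes.

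Levels are the values deposited by the authors, read as log2 units. Whether they were corrected for gene length is not stated, so levels are compared between lines and not between genes. Shares in ppm, parts per 1000000, are of the sum of all rows on the linear scale. Depth is unknown, so counting error could not be separated from differences between lines. The tables used here do not pair the other identifiers with gene symbols, so B lymphocyte markers and markers of other cell types were not checked. In such bulk samples, fewer cells of a type and less RNA per cell cannot be told apart. Across the 12590 rows that averaged 1 ppm or more, which are called kept rows, deviations from the row median had an SD of 0.53 log2 units in Asia. The other lines had SDs between 0.22 and 0.42, so Asia stood farthest apart, and results that rest on it are also given without it.

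ALDH1A1 (ENSG00000165092), a cytosolic retinaldehyde dehydrogenase, was abundant in Asia, intermediate in Nancy and low in the other lines. Its level was 13.44 log2 units in Asia, which is 800.3 ppm of the linear total. Nancy followed at 6.42 log2 units, or 6.14 ppm. The third line was Melouprey, at 4.41 log2 units and 1.53 ppm, and the order went on with China (3.97), Bobby (3.92), Phyllis (3.74), Ricky (3.70), Khao (3.56) and Vok (3.49). Asia and Nancy thus stood apart from a cluster of 7 lines, and from each other.

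The mean of ALDH1A1 was 5.18 ± 3.23 log2 units (SD, n = 9), a pair of figures that describes none of the lines well. Asia exceeded Nancy by 130-fold (7.02 log2 units) and Nancy exceeded Melouprey by 4.04-fold. The full range was 993-fold (9.96 log2 units), the widest among the kept rows, where the next widest was 306-fold. With a pseudocount of 1 ppm the range of ALDH1A1 was 8.78 log2 units. Without Asia the range was 7.65-fold (mean 4.15 ± 0.96, SD, n = 8). Over the 7 remaining lines, without Nancy as well, the range was 1.89-fold, between 0.818 and 1.53 ppm (mean 3.83 ± 0.31, SD, n = 7). Among these 7, Melouprey lay above China by more than that SD, and the neighbours from China down lay closer together than it. In 4 lines the gene lay below 1 ppm, and its mean without Asia was 1.68 ppm. How far the authors' transformation reduced differences at this low level was not tested.

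ALDH1A2 (ENSG00000128918), the retinaldehyde dehydrogenase that supplies retinoic acid in mouse embryos, did not share the peak in Asia. Its lowest level was 5.30 log2 units in Vok, its median 6.01 and its highest 6.66 in Bobby (mean 6.07 ± 0.41, SD, n = 9). Asia was itself the median line. The range was 2.56-fold, and 14.9% of kept rows had a range at least as wide. Vok lay apart below the next line, Phyllis, by 1.38-fold, and without Vok the range of ALDH1A2 was 0.90 log2 units.

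Vok and Melouprey were the lowest lines for both acetaldehyde-oxidising mitochondrial enzymes, and stood apart from the rest in ALDH2 but not in ALDH1B1. ALDH2 (ENSG00000111275), the main acetaldehyde dehydrogenase and one that also removes formaldehyde, ran from 8.23 log2 units in Vok through a median of 9.18 to 9.48 in China (mean 9.02 ± 0.45, SD, n = 9). Melouprey stood beside Vok at 8.32, and the other 7 lines lay between 8.97 and 9.48. The gap between these levels was 1.57-fold and held no line, while the full range was 2.38-fold. A full range at least as wide was seen in 17.9% of kept rows. ALDH1B1 (ENSG00000137124), a mitochondrial relative of ALDH2, ran from 4.63 log2 units in Melouprey through 5.16 to 5.38 in Khao (mean 5.04 ± 0.31, SD, n = 9). Vok was second lowest at 4.65, only 0.015 log2 units above Melouprey. Ricky (4.79) and China (4.87) came next, and the widest gap in the order, 0.28 log2 units, lay above China. The range of ALDH1B1 was 1.68-fold, and 43.8% of kept rows were at least as wide.

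ALDH3A2 (ENSG00000072210), the fatty aldehyde dehydrogenase of the endoplasmic reticulum that is mutated in Sjögren-Larsson syndrome, had the smallest range and SD of the 10 genes. It ran from 9.50 log2 units in China through 9.78 to 10.15 in Phyllis (mean 9.81 ± 0.20, SD, n = 9). Its range of 1.57-fold was matched or exceeded by 53.3% of kept rows. It was the gene of the other 9 that was above its median in Vok.

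Among the enzymes of amino acid and amine breakdown, Vok was lowest for ALDH5A1 and ALDH6A1, and Asia was highest for ALDH5A1 and ALDH9A1. ALDH5A1 (ENSG00000112294), which oxidises succinic semialdehyde in the breakdown of GABA, ran from 9.26 log2 units in Vok through 9.73 to 10.38 in Asia (mean 9.76 ± 0.36, SD, n = 9). China followed Asia at 10.19, and the values were graded with no wide gap. The range was 2.18-fold over all lines and 1.90-fold without Asia. Over all lines, 21.8% of kept rows had a range at least as wide.

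ALDH6A1 (ENSG00000119711), the methylmalonate semialdehyde dehydrogenase of valine and thymine breakdown, was high in Nancy. It ran from 9.46 log2 units in Vok through 9.78 to 10.37 in Nancy (mean 9.76 ± 0.28, SD, n = 9). The range was 1.88-fold, with 31.1% of kept rows at least as wide. Nancy exceeded the next line, Ricky, by 1.44-fold, and the other 8 lines spanned 0.38 log2 units. Nancy was thus the second line for ALDH1A1 and the first for ALDH6A1, and the size of this step was far smaller in ALDH6A1.

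ALDH7A1 (ENSG00000164904), the antiquitin of lysine breakdown, ran from 6.13 log2 units in Phyllis through 6.79 to 7.49 in Bobby (mean 6.82 ± 0.43, SD, n = 9). The range was 2.56-fold, and Bobby exceeded the next line, Nancy, by 1.27-fold. A range at least as wide was seen in 15.1% of kept rows. Phyllis and Vok (6.33) formed the low end without a wide gap above them.

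ALDH9A1 (ENSG00000143149), which oxidises aminoaldehydes and takes part in carnitine synthesis, was low in Khao. It ran from 8.74 log2 units in Khao through 9.61 to 10.001 in Asia (mean 9.57 ± 0.37, SD, n = 9). Khao lay below the next line, Vok, by 1.54-fold. The range was 1.26 log2 units (2.39-fold) over all lines, 1.12 without Asia and 0.64 without Khao. Over all lines, 17.6% of kept rows had a range at least as wide.

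ALDH18A1 (ENSG00000059573), the pyrroline-5-carboxylate synthase that starts proline synthesis from glutamate, also had its lowest level in Khao and its highest in Asia. It ran from 11.14 through 11.58 to 11.97 log2 units (mean 11.56 ± 0.23, SD, n = 9). The range was 1.77-fold, with 37.1% of kept rows at least as wide, and 1.51-fold without Asia.

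**Figure D1:**
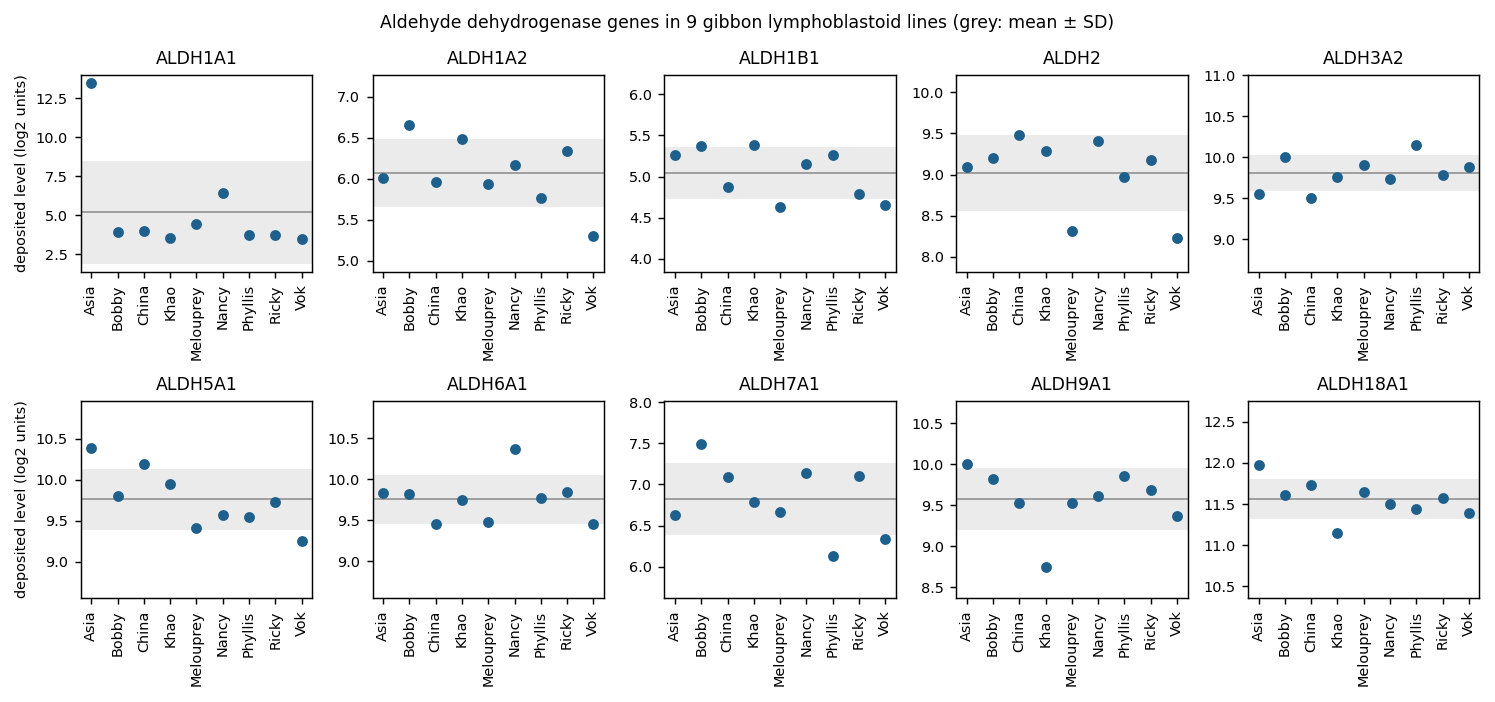
Deposited level of each gene (y axis, log2 units) in each line (x axis), 1 point per library, with the mean as a grey line and the SD as a grey band. The values of ALDH1A1 run from 3.49 to 13.44 log2 units on a scale of their own, while every other panel spans the same height. Asia stands alone for ALDH1A1, Nancy for ALDH6A1 and Khao for ALDH9A1, and Melouprey and Vok are low for ALDH2.

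Spans of at least 2-fold were seen in 6 of the 10 genes, against 26.4% of kept rows. They were ALDH1A1, which had been picked for its range, and 5 of the other 9, namely ALDH1A2, ALDH2, ALDH5A1, ALDH7A1 and ALDH9A1. ALDH1A1 was the 1 gene that spanned at least 4-fold, as did 6.18% of kept rows. The other 9 genes had ranges from 1.57-fold to 2.56-fold, with a median of 1.12 log2 units (2.18-fold) against 0.68 log2 units (1.60-fold) for all kept rows. Their median SD was 0.36 log2 units, against 0.22 for all kept rows. Several ranges lay close to the 2-fold line. ALDH1A1, picked for its range, was part of every count that follows. Without Vok the count fell to 4 of 10, against 22.3% of kept rows, since ALDH1A2 and ALDH5A1 dropped below 2-fold. Of the other 9 genes, ALDH2, ALDH7A1 and ALDH9A1 then remained. Without Asia the count was 5 of 10, and 4 of the other 9, against 22.1% of kept rows over the same 8 lines. There ALDH5A1 dropped below 2-fold. The count was also 5 of 10 without Khao, against 24.4% of kept rows, where ALDH9A1 dropped below 2-fold. ALDH1A2, ALDH2, ALDH5A1 and ALDH7A1 then remained of the other 9.

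**Figure D2:**
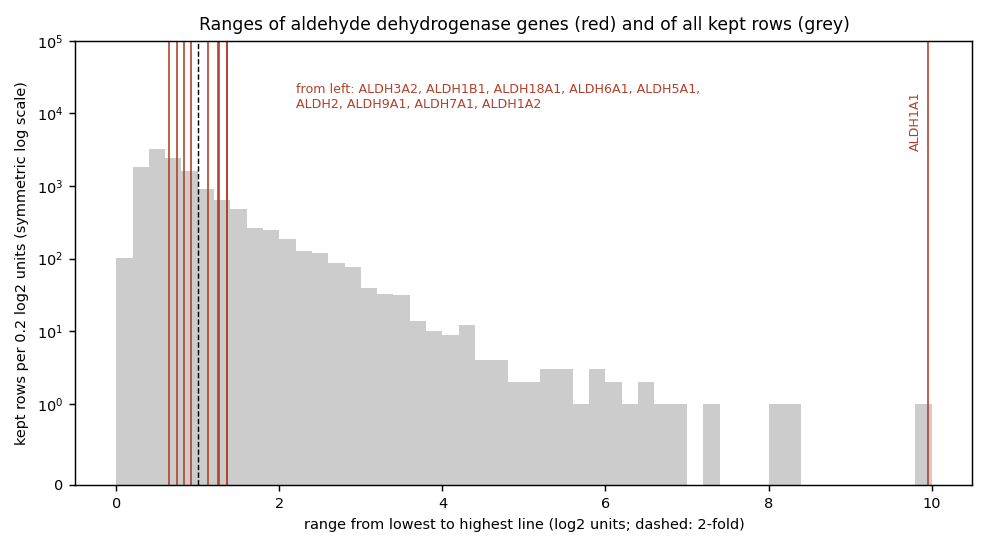
Span between lowest and highest line (x axis, log2 units) for the 12590 kept rows (grey bars, rows per 0.2 log2 units on a symmetric log scale) and for the 10 aldehyde dehydrogenase genes (red lines), with 2-fold dashed. The other 9 genes lie between 0.65 and 1.36 log2 units, inside the bulk of the rows, and ALDH1A1 lies alone at 9.96.

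The lines differed in how often they sat at the ends of these genes. The counts that follow are over the 9 genes other than ALDH1A1, and the lines were singled out after their values were seen. Bobby was above the median in all 9 genes, against 41.6% of kept rows. The excess was small in some, from 0.023 log2 units in ALDH2 to 0.69 in ALDH7A1, with a median of 0.20. Vok was below the median in 8 of 9 genes, against 43.3% of kept rows. Its median deviation was -0.46 log2 units, and it was the lowest line in 4 of 9 genes (ALDH1A2, ALDH2, ALDH5A1 and ALDH6A1), against 17.1% of kept rows. Vok was the highest line in 0 of 9 genes, while it was highest in 21.7% of kept rows. Melouprey was below the median in 7 of 9 genes, against 45.5% of kept rows, with a median deviation of -0.12 log2 units. These genes share a library within each line, so they are not independent observations of it.

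Asia, which stood so far above the others for ALDH1A1, was the highest line in 3 of the 9 other genes, against 22.6% of kept rows. They were ALDH5A1, ALDH9A1 and ALDH18A1, which lay 0.66, 0.39 and 0.39 log2 units above their medians there. ALDH2, ALDH3A2 and ALDH7A1 were below their medians in Asia, by at most 0.23 log2 units. Among the 9 genes other than ALDH1A1, a line far from the other 8 by Dixon's gap criterion was found in 2, against 10.1% of kept rows. It was Nancy in ALDH6A1 and Khao in ALDH9A1. The gap ratio of Khao was 0.494, just past the criterion, and it was not past it under median centring or quantile normalization (0.484 and 0.485). With a pseudocount of 1 ppm the ratio was 0.510, past the criterion. Asia was also past it in ALDH1A1, but that gene was picked for its range in these same values, so this outcome supports nothing. None of the deviations of the other genes approached that of ALDH1A1, which was 9.52 log2 units above its median in Asia.

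**Figure D3:**
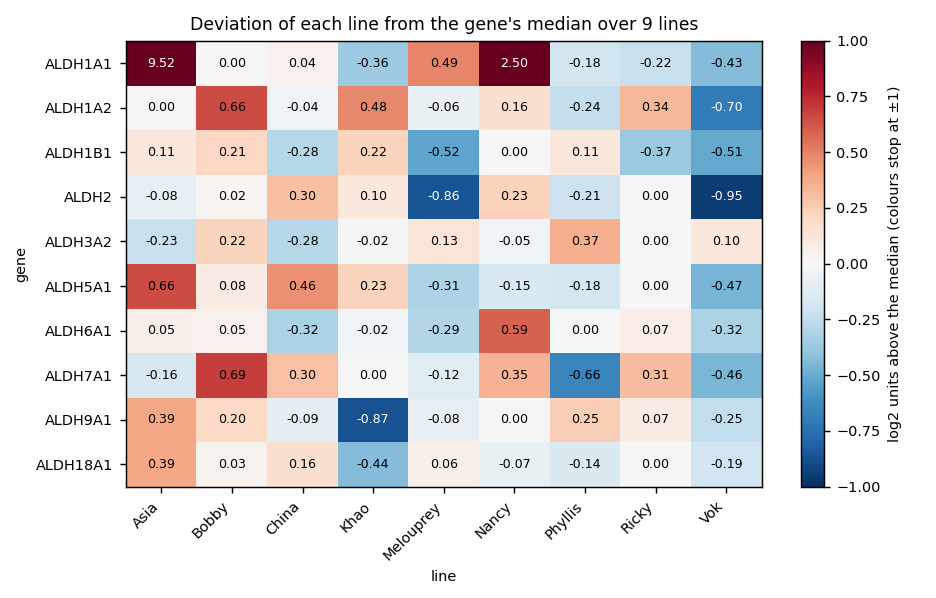
Deviation of each line (columns) from the median of each gene (rows) in log2 units, printed in each cell and coloured red above and blue below the median, with colours stopping at ±1. The Bobby column holds no value below 0, the Vok column is below 0 in all genes except ALDH3A2, and ALDH1A1 in Asia (9.52) and Nancy (2.50) lies beyond the colour scale.

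Pairs of genes were compared over the lines, leaving ALDH1A1 out because its lines fall into separate levels. Of 36 pairs, 26 had a positive Pearson r and 10 a negative one, and the median was 0.16. An absolute r of at least 0.7 over the 9 lines was found in 3 pairs, against 9.09% of all pairs of kept rows. With a line left out the count lay between 2 (without Bobby) and 5 (without China, Nancy or Phyllis). The share of all pairs of kept rows with a line left out was not computed, so those counts have no background. None of the 36 pairs passed 0.05 in a two-sided exact permutation test with Benjamini-Hochberg adjustment over the 36 pairs. Without adjustment, 4 pairs lay under 0.05 by Pearson r and 2 by Spearman rho.

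The highest r joined ALDH1A2 and ALDH7A1, at 0.78 (exact permutation p = 0.014, adjusted p = 0.41). Their rho was 0.80 (exact permutation p = 0.014, adjusted p = 0.39), and r was 0.58 over 7 lines without Bobby and Vok, the lines at the ends of ALDH1A2. Both genes were highest in Bobby, and Vok was lowest for ALDH1A2 and second lowest for ALDH7A1. The lowest r joined ALDH3A2 and ALDH5A1, at -0.70 (exact permutation p = 0.035, adjusted p = 0.42), with a rho of -0.65 (exact permutation p = 0.067, adjusted p = 0.39) and an r of -0.67 over 7 lines without China and Phyllis. Without Asia alone, r of ALDH3A2 and ALDH5A1 was -0.59. Another pair, named after its value was seen, was ALDH9A1 and ALDH18A1, with an r of 0.77 (exact permutation p = 0.023, adjusted p = 0.41). Its rho was 0.48 (exact permutation p = 0.19, adjusted p = 0.50). That r rested on Asia and Khao, the lines at the ends of both genes. It was 0.71 without Asia alone, 0.51 without Khao alone and 0.016 over the 7 lines without both.

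**Figure D4:**
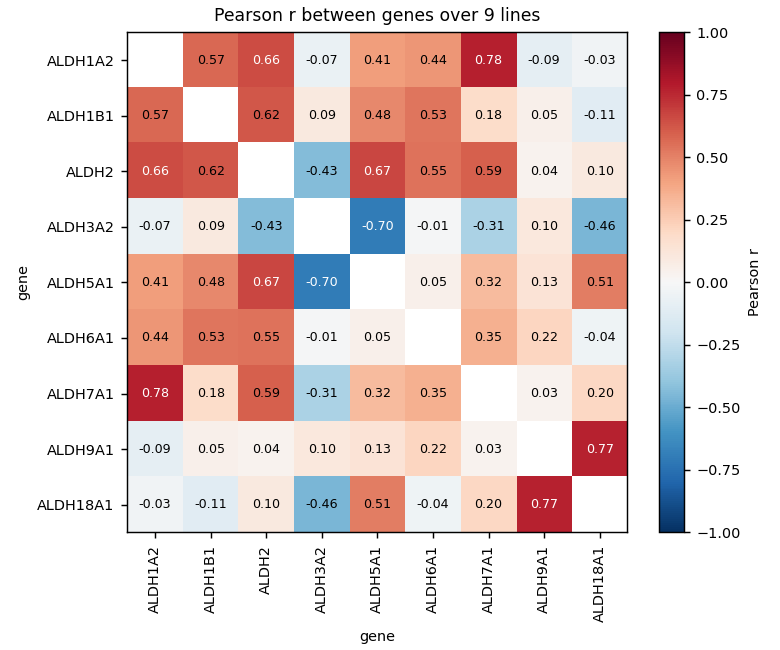
Pearson r over the 9 lines for the 36 pairs among the genes other than ALDH1A1, printed in each cell and coloured from blue (-1) to red (1). The highest value is 0.78 for ALDH1A2 and ALDH7A1 and the lowest is -0.70 for ALDH3A2 and ALDH5A1, and no pair passed the adjusted test.

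Rows that followed ALDH1A1 were sought among 3326 other kept rows spanning at least 2-fold over the 9 lines. That span included Asia, so a row could enter through Asia alone. Without Asia, each of the 4 rows named below spanned less than 2-fold. A Pearson r of at least 0.9 over the 9 lines was reached by 87 rows (2.62%), and an r of -0.9 or lower by 35. Without Asia the counts were 62 and 16 among the same 3326 rows, whose choice still included Asia. By Spearman rho over the 9 lines they were 4 and 1. Because Asia stood far apart in ALDH1A1, r over the 9 lines weighs mainly Asia. Without Asia it weighs mainly Nancy, and r without both lines was not computed. The closest was ENSG00000276855 (r = 0.990, n = 9), at 6.91 log2 units in Asia, 5.80 in Nancy and between 5.17 and 5.39 elsewhere. ENSG00000179840 came next (r = 0.988, n = 9), at 6.27 in Asia, 4.76 in Nancy and between 4.10 and 4.46 elsewhere. The most opposite rows were ENSG00000163935 (r = -0.97, n = 9), at 7.69 in Asia, and ENSG00000163297 (r = -0.96, n = 9), at 8.32 in Asia. Their steps were much smaller than that of ALDH1A1. The Spearman rho of the 4 rows was 0.53, 0.70, -0.73 and -0.55 in the order named, and r without Asia was 0.91, 0.84, -0.81 and -0.83 (n = 8). Of the 50 rows with the highest r over all lines, 3 were among the 50 highest without Asia.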

How the data were processed

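Total RNA had been prepared with an RNeasy kit and libraries with an Illumina TruSeq kit, per the labels' protocols. DESeq2, edgeR, STAR and Trimmomatic appear in the submitters' processing notes without version or role. Strandedness, build, annotation and the kind of normalization were not given in the sources used here. The authors deposited 1 table of normalized values on a log scale, from 0.71 to 18.66, read here as log2 (the base is not stated). Raised to base 2, the lines sum to between 13728358 and 14059842, so depth is unknown. At most 23 kept rows were equal within 0.0001 in any pair of lines. If the values are regularized logs, differences in low rows are reduced. The header joined its last names by a space and was split at white space, leaving 0 per-sample columns unused.

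From these values the SD, range and rank of the lines were computed with Python 3.11.15, numpy 2.4.6 and pandas 2.3.3, with no pseudocount. Rows averaging 1 ppm or more were kept. Pairs were tested with exact permutations over all 362880 orders of the lines, as planned. The functions were tested on simulated data. Every gene of the family list is named. Likeness to ALDH1A1 named the 2 rows with the highest and the 2 with the lowest Pearson r. The genes and lists were chosen with earlier results of these data known. The RefSeq table of assembly Asia_NLE_v1 holds all 10 symbols but matches 0 of the 15356 identifiers, so the planned lists of other aldehyde dehydrogenases, retinoid, ethanol, proline, GABA and branched-chain genes, and cell type markers, were not analysed here. In that annotation 0 of the 10 genes had a protein-coding neighbour with an ALDH symbol. ALDH1A1, ALDH1B1, ALDH2 and ALDH3A2 each had a neighbour with only a LOC identifier, whose family this check by symbol cannot tell. Alternatives were leaving out each line, median centring, quantile normalization, a pseudocount of 1 ppm, other filters, the interquartile range and Spearman rho.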

Additional observations from a re-analysis of the deposited data

Results flagged for a closer look

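Each of the 10 genes was checked for a line far from the others with Dixon's gap ratio, judged against its 95% critical value for 9 lines. Chance flags about 1 in 20 sets if the values are normally distributed, which was not checked here. Of the 9 genes other than ALDH1A1, 2 had a line past it, against 10.1% of kept rows. ALDH1A1 had Asia at 13.44 log2 units, far above the other lines. This gene was picked for its range in these same values, so that outcome supports nothing. ALDH6A1 had Nancy at 10.37 log2 units, above the others. ALDH9A1 had Khao at 8.74 log2 units, below the others, with a ratio of 0.494 that barely exceeds the critical value. Under median centring and quantile normalization Khao was no longer past it, but with a pseudocount of 1 ppm it was (0.510). Asia in ALDH1A1 and Nancy in ALDH6A1 were past it under all 3 settings. These settings for the gap ratio were chosen after seeing the data.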

How the results depend on the processing

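The number of genes spanning at least 2-fold was 6 of 10 under the other scalings and pseudocount, and 4 to 6 with single lines omitted. ALDH1A1, picked for its range, was among them in every setting. A filter of 5 ppm left 8 genes, 5 of them spanning 2-fold. ALDH1A1 passed that filter only through Asia (mean 1.68 ppm without it), so this count is no check of stability. For comparison, 3327 of the 12590 kept rows (26.4%) reached 2-fold in the main setting. Median centring gave 3315 rows, quantile normalization 3337 and the pseudocount 2776, and omission of single lines gave 2780 to 3287. Dropping the filter gave 3521, out of all 15356 rows, and the 5 ppm filter gave 2469. How many rows passed 5 ppm was not recorded, so the 5 of 8 genes have no background share. Because the filters change the total, their counts cannot be set beside 3327. Median centring, quantile normalization and a pseudocount of 1 ppm moved no range by as much as its SD and brought none of the 3 named pairs past the adjusted threshold. For ALDH1A1 that SD was 3.23 log2 units (0.96 without Asia), so it is a loose measure. The pseudocount lowered the range of ALDH1A1 from 9.96 to 8.78 log2 units. These settings left 2 or 3 pairs with an absolute r of at least 0.7. Leaving out a line gave 2 to 5 such pairs, r between 0.67 and 0.85 for ALDH1A2 and ALDH7A1 (smallest adjusted exact permutation p = 0.14) and r between -0.77 and -0.59 for ALDH3A2 and ALDH5A1 (smallest adjusted exact permutation p = 0.30). For ALDH9A1 and ALDH18A1, run after seeing the data, r lay between 0.51 and 0.88 (smallest adjusted exact permutation p = 0.21).

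Ranges with a line left out ran, in log2 units, from 2.93 to 9.96 for ALDH1A1, 0.90 to 1.36 for ALDH1A2, 0.38 to 0.91 for ALDH6A1, 0.64 to 1.26 for ALDH9A1 and 0.58 to 0.83 for ALDH18A1. The interquartile range, narrower by construction, was 0.71 for ALDH1A1, 0.40 for ALDH1A2, 0.47 for ALDH1B1, 0.31 for ALDH2, 0.17 for ALDH3A2, 0.40 for ALDH5A1, 0.35 for ALDH6A1, 0.47 for ALDH7A1, 0.29 for ALDH9A1 and 0.21 for ALDH18A1. Likeness to ALDH1A1 by Spearman rho was 0.53 for ENSG00000276855, 0.70 for ENSG00000179840, -0.73 for ENSG00000163935 and -0.55 for ENSG00000163297. By Pearson r with a line left out, a setting added after seeing the data, it ran from 0.91 to 0.99, from 0.84 to 0.99, from -0.98 to -0.81 and from -0.98 to -0.83, and the value nearest 0 was the one without Asia in each. No paired analysis was possible because the lines form a single group. With depth unknown, counting noise in low rows, such as ALDH1A1 outside Asia, could not be removed.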
